A study of Mus musculus with 14 samples.

Results

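The regulators of G protein signaling (RGS) examined here were 10 genes taken by name from the 43629 gene identifiers of the deposited count tables: Rgs2, Rgs4, Rgs6, Rgs7, Rgs8, Rgs10, Rgs12, Rgs14, Rgs16 and Rgs17. All 10 were among the 15959 genes with enough reads to be tested. RNA-seq covered 8 primary cultures of wild-type C57BL6 mouse hippocampus, started from pups of postnatal day 0 to 1 and grown for 14 days in vitro. In the PTX group (n = 4), cultures were exposed to 100 µM picrotoxin, a blocker of the inhibitory GABA-A receptor channels, over 15 h. In the CTRL group (n = 4), cultures had 0.1% of the solvent DMSO over the same 15 h. ChIP-seq used an antibody against the chromatin reader L3mbtl1 on hippocampus of postnatal day 7 to 8 mice on a mixed C57BL6/129 background, with 3 L3mbtl1-/- and 3 wild-type samples. For these 6 samples 1 list of 4677 peaks was deposited.

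G protein-coupled receptors switch on heterotrimeric G proteins by loading GTP onto their alpha subunit, and the signal ends when the alpha subunit hydrolyses that GTP. RGS proteins bind the active alpha subunit through their shared RGS domain and speed up this hydrolysis, so that they shorten signalling through Gi/o, Gq or Gz. In neurons they set the time course of responses to GABA, glutamate, monoamines and peptides, among them the opening of GIRK potassium channels and the block of presynaptic calcium channels. The genes fall into the R4 group (Rgs2, Rgs4, Rgs8 and Rgs16, small proteins that are little more than the RGS domain), the R7 group (Rgs6 and Rgs7, which pair with the beta subunit Gnb5), the R12 group (Rgs10, Rgs12 and Rgs14) and the RZ group (Rgs17).

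Of the 10 genes, 7 rose under picrotoxin (Rgs2, Rgs4, Rgs7, Rgs8, Rgs10, Rgs12 and Rgs16), 1 fell (Rgs17) and 2 did not pass the test (Rgs6 and Rgs14). A call here means a Benjamini-Hochberg adjusted p under 0.05 in edgeR's quasi-likelihood test over all 15959 genes. Picrotoxin moved a large part of the transcriptome, so these counts have a high background. Of all tested genes 39.2% were called, 19.0% as higher and 20.1% as lower. The PTX and CTRL libraries did not overlap for 8 of the 10 RGS genes, against 38.0% of tested genes. The 7 rises were all at least 2-fold, and the number of tested genes with a larger rise was 156 for Rgs4, the largest of them, and 905 for Rgs10, the smallest. The median log2 fold change was 1.46 over the 10 genes and -0.03 over all tested genes. The 10 genes were picked with results of these data known, so no test was made of the list itself.

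Gene counts per library ran from 14524916 to 19498189, and values are given as CPM (the count of a gene scaled to a common library size) after TMM normalization. The lengths of the transcripts were not used here, so levels are compared between cultures, and amounts of transcript are not compared between genes. Sums over genes, and the share of a gene in a sum, are of reads and depend on transcript length. Both libraries numbered 1 stood apart from the other 6 on the second principal component (21% of the variance), with meningeal fibroblast markers summing to 339 CPM in PTX replicate 1 and 417 CPM in CTRL replicate 1. In the other libraries that sum was 108 to 138 CPM in PTX and 146 to 219 CPM in CTRL. Most of it there was Ogn, which went the other way, with its lowest levels in PTX replicate 1 (53.1 CPM) and CTRL replicate 1 (73.9 CPM). Col1a2 had 96.6 CPM in PTX replicate 1 and 84.9 CPM in CTRL replicate 1. In the other libraries Col1a2 had 8.43 to 10.8 CPM in PTX and 6.47 to 11.2 CPM in CTRL. The pan-neuronal markers Rbfox3, Map2, Tubb3, Snap25 and Syn1 were present in all libraries and summed to 3794 to 5044 CPM in PTX and 2861 to 3822 CPM in CTRL. Their members went both ways: Map2 rose 1.48-fold and Snap25 1.52-fold, and these 2 made up most of the sum, while Rbfox3 fell 2-fold (edgeR adjusted p = 0.0135, 0.00113 and 0.000309). Of 8 excitatory neuron markers 6 fell and 1 rose, Slc17a6 by 12.7-fold, and their sum was 678 to 848 CPM in PTX and 496 to 618 CPM in CTRL. Slc17a6 alone had 417 to 598 CPM in PTX and 32.7 to 44.6 CPM in CTRL, so it made up most of the PTX sum. Of 10 inhibitory neuron markers 5 rose and 2 fell, with a sum of 1039 to 1181 CPM in PTX and 577 to 740.2 CPM in CTRL. Of 8 astrocyte markers 4 fell and 0 rose, with a sum of 4346 to 6043 CPM in PTX and 5981 to 8068 CPM in CTRL. The part of these shifts in the levels of the RGS genes was not tested. Over all tested genes 39.2% were called, so the marker counts have a high background. In such bulk cultures, more or fewer cells of a type and more or less RNA per cell cannot be told apart. Nothing in the labels says that replicates were separate preparations, so p-values measure the spread between these cultures.

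The stretches of DNA just upstream of the annotated starts are shown for 5 of the genes, because they include the 3 R4 genes with the largest rises and the 2 genes with an AP-1 motif among the 9 searched. Each run is 250 bases from RefSeq (GRCm38.p6, the assembly of mm10), 5′ to 3′ on the strand of the gene and ending at the base before the start. Capitals mark matches to the AP-1 motif (TGANTCA) or to the half-site of the cAMP response element (CRE, TGACG), searched on both strands, so that the half-site can also read CGTCA. Rgs4 lies at chr1:169747643-169747892 (minus strand), Rgs16 at chr1:153740103-153740352 (plus strand), Rgs2 at chr1:144004150-144004399 (minus strand), the downstream of the 2 annotated starts of Rgs12 at chr5:34998828-34999077 (plus strand) and Rgs17 at chr10:5922401-5922650 (minus strand).
Rgs4: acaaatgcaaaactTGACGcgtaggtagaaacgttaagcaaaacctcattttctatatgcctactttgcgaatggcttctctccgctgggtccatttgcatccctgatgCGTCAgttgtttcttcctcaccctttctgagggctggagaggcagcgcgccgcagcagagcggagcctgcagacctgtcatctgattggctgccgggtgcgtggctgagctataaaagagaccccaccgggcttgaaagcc
Rgs16: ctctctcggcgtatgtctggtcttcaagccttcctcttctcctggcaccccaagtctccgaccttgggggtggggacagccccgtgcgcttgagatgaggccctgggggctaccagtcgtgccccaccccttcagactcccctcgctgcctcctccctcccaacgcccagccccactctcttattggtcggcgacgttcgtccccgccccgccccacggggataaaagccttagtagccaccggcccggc
Rgs2: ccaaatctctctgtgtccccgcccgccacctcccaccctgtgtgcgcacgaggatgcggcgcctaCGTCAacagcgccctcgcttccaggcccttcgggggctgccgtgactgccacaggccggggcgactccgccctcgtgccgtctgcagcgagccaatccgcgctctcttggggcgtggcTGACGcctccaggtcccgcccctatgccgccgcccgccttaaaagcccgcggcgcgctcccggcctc
Rgs12 downstream start: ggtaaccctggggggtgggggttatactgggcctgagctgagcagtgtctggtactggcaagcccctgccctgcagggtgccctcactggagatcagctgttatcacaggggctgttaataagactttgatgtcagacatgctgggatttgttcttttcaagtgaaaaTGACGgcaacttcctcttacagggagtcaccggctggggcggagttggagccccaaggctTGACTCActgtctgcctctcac
Rgs17: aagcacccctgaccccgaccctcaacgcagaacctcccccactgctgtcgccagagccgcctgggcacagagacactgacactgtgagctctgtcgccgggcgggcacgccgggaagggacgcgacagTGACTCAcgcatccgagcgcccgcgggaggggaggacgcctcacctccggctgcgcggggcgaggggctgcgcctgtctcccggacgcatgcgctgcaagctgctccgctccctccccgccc

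RefSeq windows of 300 bases (250 before and 50 after a start) were at hand for 9 of the 10 genes, in 12 windows, with none for Rgs14. The CRE half-site was found in 4 of the 12 windows, against 20.8% of all 32851 windows in the table. They were those of Rgs2, Rgs4, the most upstream of the 3 annotated starts of Rgs8 and the downstream start of Rgs12. In Rgs4 its matches began 236 and 141 bases before the start, and in Rgs2 they began 185 and 67 bases before it. The AP-1 motif was found in 2 of the 12 windows, against 7.81% of all windows: 22 bases before the downstream start of Rgs12, which rose, and 122 bases before the start of Rgs17, which fell. The full CRE (TGACGTCA), the EGR motif (GCGTGGGCG) and the CArG box were in 0 of the 12 windows, against 1.79%, 0.612% and 1.63% of all windows. A full CRE also counts as a half-site. The windows of Rgs6, Rgs7, Rgs10 and Rgs16, and the other windows of Rgs8 and Rgs12, held none of the motifs searched. The part of these motifs in the changes under picrotoxin was not tested. A match is a description of the sequence and not a measured binding site.

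The R4 genes all rose. Rgs4 (ENSMUSG00000038530, chromosome 1, 169741477 to 169747642), which acts on Gi/o and Gq, is known for strong and regulated expression in forebrain neurons. It had 3499, 3129, 3777 and 3114 CPM in PTX replicates 1 to 4, against 388, 471, 279 and 258 CPM in CTRL replicates 1 to 4. The lowest PTX culture was far above the highest CTRL culture, and the groups did not overlap. Rgs4 averaged 3380 ± 319 CPM in PTX and 349 ± 99.4 CPM in CTRL (SD, n = 4 each), a 9.68-fold rise (log2 fold change 3.27, SE 0.20, edgeR adjusted p = 2.73e-06). Only 156 of the 15959 tested genes had a larger rise.

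Rgs16 (ENSMUSG00000026475, chromosome 1, 153740353 to 153745468), another regulator of Gi/o and Gq, had 31.7, 48.8, 35.3 and 27.2 CPM in PTX replicates 1 to 4. In CTRL replicates 1 to 4 it had 5.42, 6.56, 4.79 and 2.74 CPM. All PTX cultures lay above all CTRL cultures, with PTX replicate 2 the highest. Rgs16 averaged 35.8 ± 9.32 CPM in PTX and 4.88 ± 1.6 CPM in CTRL (SD, n = 4 each), and it rose 7.29-fold (log2 fold change 2.87, SE 0.26, edgeR adjusted p = 2.37e-05). Its nearest tested neighbour on 1 side was Rgs8, 42.7 kb away, which also rose.

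Rgs8 (ENSMUSG00000042671, chromosome 1, 153652959 to 153697669), a Gi/o regulator best known from cerebellar Purkinje cells, had 79.3, 61.9, 52.3 and 54.2 CPM in PTX replicates 1 to 4. It had 27.6, 30.7, 25.1 and 19.7 CPM in CTRL replicates 1 to 4. The groups did not overlap, and PTX replicate 1 was the highest. Rgs8 averaged 61.9 ± 12.3 CPM in PTX and 25.8 ± 4.64 CPM in CTRL (SD, n = 4 each), a 2.4-fold rise (log2 fold change 1.26, SE 0.16, edgeR adjusted p = 0.000212). Rgs8 and its neighbour Rgs16 thus both rose, and the difference between their fold changes was not tested.

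Rgs2 (ENSMUSG00000026360, chromosome 1, 143999338 to 144004149) acts mainly on Gq and is known as an activity-induced gene of the hippocampus. It had 358, 397, 387 and 416 CPM in PTX replicates 1 to 4, against 76.8, 95.8, 72.1 and 81.3 CPM in CTRL replicates 1 to 4. Both groups were tight and did not overlap. Rgs2 averaged 389.5 ± 24.2 CPM in PTX and 81.5 ± 10.2 CPM in CTRL (SD, n = 4 each), and it rose 4.78-fold (log2 fold change 2.26, SE 0.10, edgeR adjusted p = 5.91e-07).

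**Figure D1:**
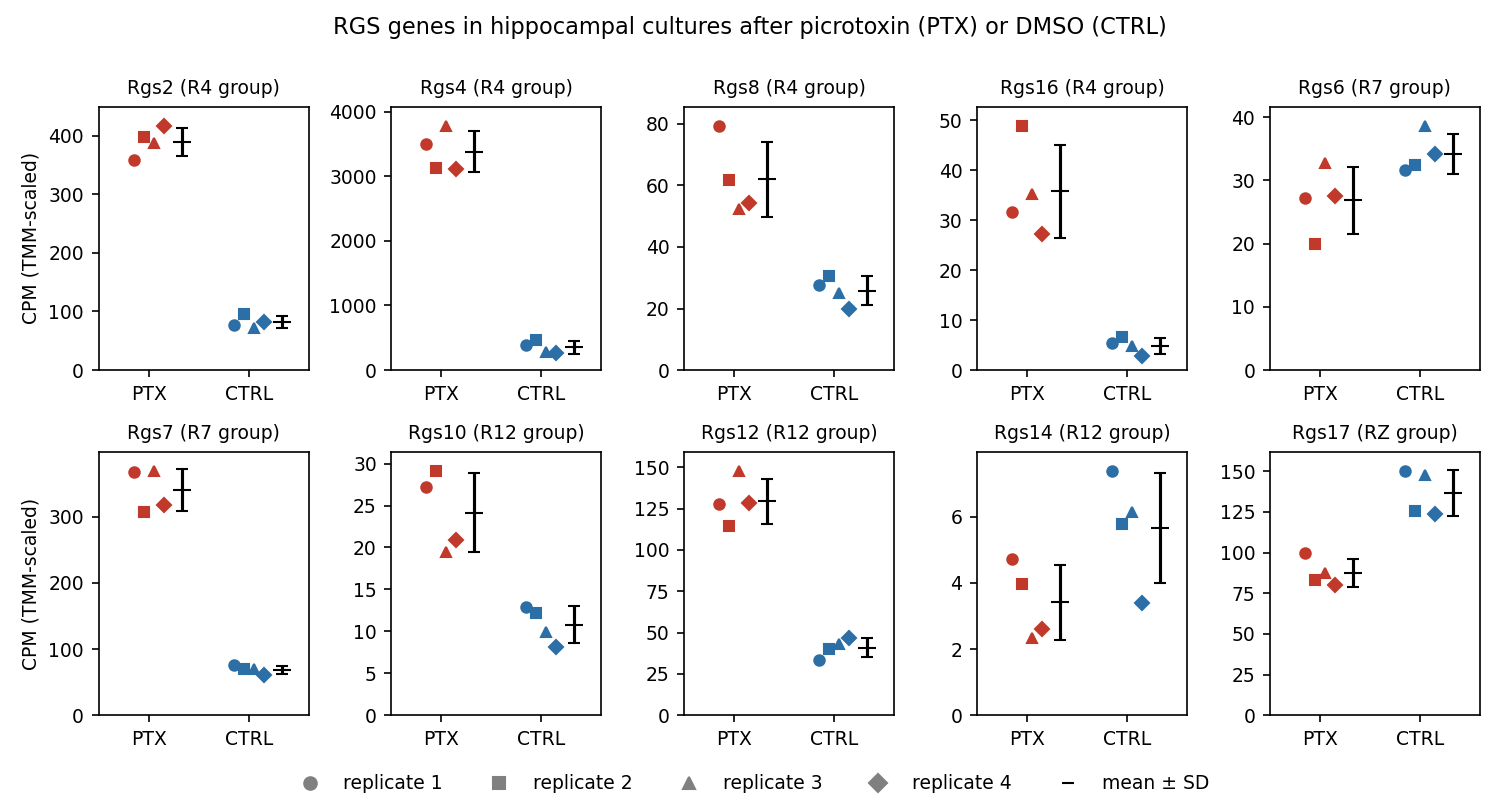
Level of each RGS gene in CPM (y axis, linear from 0, own scale per panel) in 4 PTX (red) and 4 CTRL (blue) cultures, with symbols for the replicate number and black bars for mean ± SD. The PTX cultures lie above all CTRL cultures for Rgs2, Rgs4, Rgs8, Rgs16, Rgs7, Rgs10 and Rgs12 and below them for Rgs17, and the groups overlap for Rgs6 and Rgs14.

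The R7 group split. Rgs7 (ENSMUSG00000026527, chromosome 1, 175059076 to 175492862), which closes GIRK channel responses to GABA-B receptors in hippocampal neurons, rose, and Rgs6 did not pass the test. Rgs7 had 367, 308, 369 and 317 CPM in PTX replicates 1 to 4 and 75.2, 69.96, 69.3 and 60.04 CPM in CTRL replicates 1 to 4. Its groups were far apart, with little spread in either. Rgs7 averaged 340.1 ± 32.1 CPM in PTX and 68.6 ± 6.3 CPM in CTRL (SD, n = 4 each), a 4.96-fold rise (log2 fold change 2.31, SE 0.10, edgeR adjusted p = 4.87e-07).

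Rgs6 (ENSMUSG00000021219, chromosome 12, 82616551 to 83162061), known for its part in cardiac and neuronal Gi/o signalling, had 27.1, 19.9, 32.7 and 27.5 CPM in PTX replicates 1 to 4. In CTRL replicates 1 to 4 it had 31.5, 32.4, 38.5 and 34.2 CPM. PTX replicate 3 lay above CTRL replicates 1 and 2, so the groups overlapped. Its mean was 26.8 ± 5.27 CPM in PTX and 34.2 ± 3.12 CPM in CTRL (SD, n = 4 each), with a log2 fold change of -0.35 (SE 0.14, edgeR adjusted p = 0.0759). With the replicate number as a block it was called lower (log2 fold change -0.36, edgeR adjusted p = 0.00388). The PTX culture was below the CTRL culture in 4 of 4 pairs. The gene holds 6 noncoding genes within its span, and the strand setting of the counting is not given in the sources used here, so reads of these could not be kept apart.

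The partners of R7 proteins were looked at as a list of 4 genes, of which 3 were called higher and 0 lower, against 19.0% and 20.1% of all tested genes. With 4 genes, nothing is read from these shares, and 1 of the 3 called genes, Rgs9bp, entered the test only through its PTX level. Gpr158, an orphan receptor that anchors Rgs7 at the membrane, had 253, 162, 269.8 and 215 CPM in PTX replicates 1 to 4 and 109, 83.5, 105 and 88.1 CPM in CTRL replicates 1 to 4. All PTX cultures were above all CTRL cultures (2.33-fold, log2 fold change 1.22, SE 0.16, edgeR adjusted p = 0.00022). Rgs7bp, the palmitoylated membrane anchor of the R7 group, averaged 201 ± 38.7 CPM in PTX and 119 ± 20.6 CPM in CTRL (SD, n = 4 each), and rose 1.69-fold (edgeR adjusted p = 0.00427). Rgs9bp, the anchor best known from photoreceptors, was at 2.26 ± 0.429 CPM in PTX and 0.476 ± 0.088 CPM in CTRL (SD, n = 4 each). It had 7 to 9 counts in each CTRL library and passed the filter on low counts only through its PTX level, so its call (edgeR adjusted p = 0.00011) supports nothing about the list. Gnb5, the beta subunit that R7 proteins need for stability, did not pass the test, with 48 ± 7.58 CPM in PTX and 50.4 ± 11 CPM in CTRL (SD, n = 4 each, edgeR adjusted p = 0.767).

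Rgs9 and Rgs11 complete the R7 group and were in the list of other RGS genes. Rgs11 fell 3.29-fold, with 8.94, 7.67, 5.38 and 7.95 CPM in PTX replicates 1 to 4 and 22.4, 28.3, 25.02 and 22.998 CPM in CTRL replicates 1 to 4. Its groups did not overlap (log2 fold change -1.72, SE 0.16, edgeR adjusted p = 2.38e-05). Rgs9, known from striatum and photoreceptors, had 19.2 ± 1.77 CPM in PTX and 19.3 ± 1.25 CPM in CTRL (SD, n = 4 each, edgeR adjusted p = 0.96). The 4 R7 genes thus comprised 1 that rose, 1 that fell and 2 that did not pass the test. Of the 11 other RGS genes, 9 were tested, with a median log2 fold change of -0.01. Of these 0 rose and 2 fell, which is 22.2% called, against 39.2% of all tested genes. The other one that fell was Rgs19 of the RZ group, whose groups overlapped, at 7.32 ± 1.4 CPM in PTX and 10.6 ± 1.43 CPM in CTRL (SD, n = 4 each, log2 fold change -0.53, edgeR adjusted p = 0.0297). Rgs19 missed the threshold when PTX replicate 2, 3 or 4 or CTRL replicate 1 or 3 was left out, with edgeR adjusted p of 0.0608, 0.137, 0.123, 0.0993 and 0.0908 in that order. Rgs20 did not pass the test (log2 fold change 0.26, edgeR adjusted p = 0.182) and was called higher with the replicate block (edgeR adjusted p = 0.0473).

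**Figure D2:**
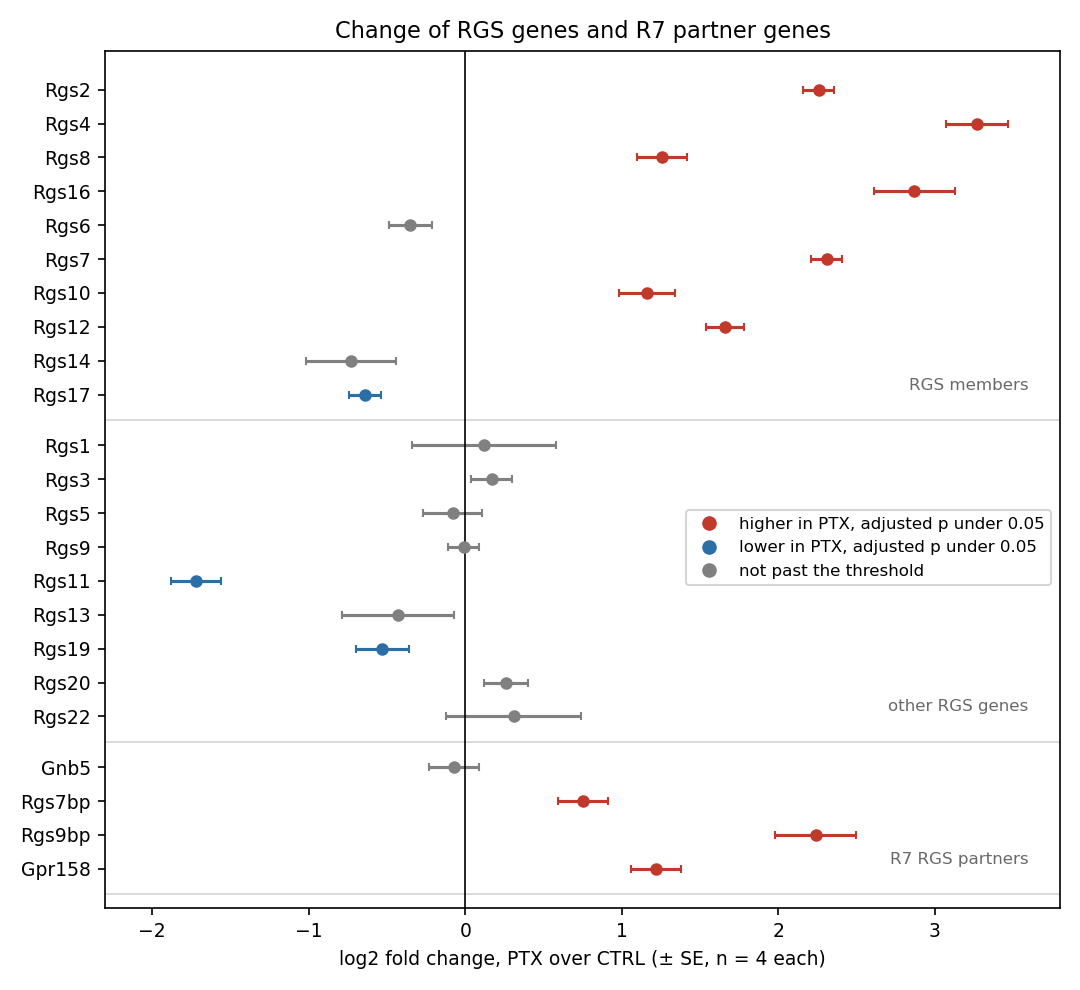
Log2 fold change of PTX over CTRL (x axis, point ± SE, n = 4 each) for the 10 RGS genes, the 9 other tested RGS genes and 4 R7 partner genes (y axis), coloured by the call. The 7 rises among the 10 genes run from 1.16 for Rgs10 to 3.27 for Rgs4, while Rgs11 lies lowest at -1.72.

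The R12 group held 2 rises. Rgs12 (ENSMUSG00000029101, chromosome 5, 34948929 to 35039642), a large scaffold protein with PDZ, Ras-binding and GoLoco domains, had 128, 114, 148 and 128 CPM in PTX replicates 1 to 4. In CTRL replicates 1 to 4 it had 33.3, 39.9, 43.1 and 46.8 CPM. The groups were wide apart. Rgs12 averaged 129 ± 13.7 CPM in PTX and 40.8 ± 5.73 CPM in CTRL (SD, n = 4 each), a 3.17-fold rise (log2 fold change 1.66, SE 0.12, edgeR adjusted p = 6.56e-06). The counts do not separate transcripts of its 2 annotated starts.

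Rgs10 (ENSMUSG00000030844, chromosome 7, 128373621 to 128419506), a small Gi regulator abundant in microglia and also made by neurons, had 27.2, 29.1, 19.4 and 20.9 CPM in PTX replicates 1 to 4. It had 12.9, 12.2, 9.89 and 8.1 CPM in CTRL replicates 1 to 4. The groups did not overlap, and within each group replicates 1 and 2 were the higher ones. Rgs10 averaged 24.1 ± 4.7 CPM in PTX and 10.8 ± 2.2 CPM in CTRL (SD, n = 4 each), a 2.24-fold rise (log2 fold change 1.16, SE 0.18, edgeR adjusted p = 0.000669). Of 11 microglia markers 10 were tested, Cd68 rose and 0 fell, which is 10% called, against 39.2% of all tested genes. The summed level of the microglia markers was 78.2 to 266 CPM in PTX and 52.7 to 158 CPM in CTRL. With the replicate block P2ry12 and Csf1r were called higher as well (edgeR adjusted p = 0.0429 and 0.0443). The microglia sum was 78.2, 266, 132 and 184 CPM in PTX replicates 1 to 4 and 52.7, 148, 158 and 144 CPM in CTRL replicates 1 to 4. PTX replicate 2 had both the highest sum and the most Rgs10. The libraries numbered 1 went the other way. CTRL replicate 1 had the lowest sum and the most Rgs10 of the CTRL cultures. PTX replicate 1 had the lowest sum of the PTX cultures, with Rgs10 at 27.2 CPM, above PTX replicates 3 and 4. The part of microglia in the level of Rgs10 was not tested. Without both libraries numbered 1 Rgs10 was still called higher.

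Rgs14 (ENSMUSG00000052087, chromosome 13, 55369732 to 55384687), a scaffold enriched in neurons of hippocampal area CA2 where it limits synaptic plasticity, had few reads and did not pass the test. It had 4.72, 3.95, 2.34 and 2.61 CPM in PTX replicates 1 to 4 and 7.37, 5.78, 6.14 and 3.4 CPM in CTRL replicates 1 to 4. CTRL replicate 4 lay among the PTX cultures. The means were 3.41 ± 1.12 CPM in PTX and 5.67 ± 1.66 CPM in CTRL (SD, n = 4 each), with a log2 fold change of -0.73 (SE 0.29, edgeR adjusted p = 0.0701). In 4 of 4 pairs the PTX culture had less. It was called lower when the replicate number was a block (edgeR adjusted p = 0.00318), without PTX replicate 1 (edgeR adjusted p = 0.0358) and without CTRL replicate 4 (edgeR adjusted p = 0.025). Of the 6 CA2 markers Amigo2 fell and 0 rose, which is 16.7% called, against 39.2% of all tested genes. With the replicate block 3 fell, in a fit that also called more of all tested genes. The summed level of the CA2 markers was 54.8 to 84.7 CPM in PTX and 77.6 to 101 CPM in CTRL. In CTRL replicate 4, the CTRL culture with the least Rgs14, this sum was also the lowest of the CTRL cultures at 77.6 CPM. The part of this sum in the level of Rgs14 was not tested.

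**Figure D3:**
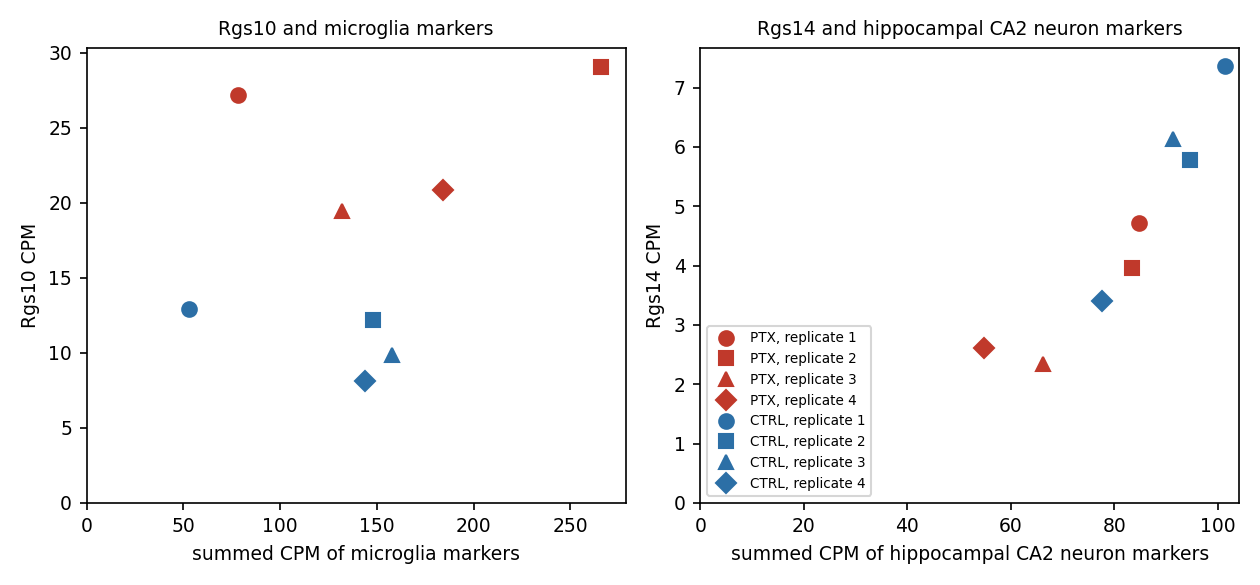
Level of Rgs10 against the summed CPM of 11 microglia markers (left) and of Rgs14 against that of 6 CA2 markers (right), with 1 point for each of 4 PTX (red) and 4 CTRL (blue) cultures and symbols for the replicate number. Every PTX culture has more Rgs10 than any CTRL culture, the microglia sums of the groups overlap, and the groups of Rgs14 overlap.

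Rgs17 (ENSMUSG00000019775, chromosome 10, 5825663 to 5922412), an RZ protein that acts on Gz and other Gi alpha subunits and is prominent in brain, was the 1 gene of the 10 called lower. It had 99.6, 83.04, 87.4 and 79.7 CPM in PTX replicates 1 to 4, against 149.9, 125, 148 and 124 CPM in CTRL replicates 1 to 4. No PTX culture reached the lowest CTRL culture, and the differences were alike in all pairs, at -0.59, -0.59, -0.76 and -0.63 on the log2 scale. Rgs17 averaged 87.4 ± 8.67 CPM in PTX and 136.6 ± 14.1 CPM in CTRL (SD, n = 4 each), a 1.56-fold fall (log2 fold change -0.64, SE 0.10, edgeR adjusted p = 0.000711).

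Together the reads of the 10 genes made up 4621, 4195, 4909 and 4188 CPM in PTX replicates 1 to 4, against 808, 889.8, 696 and 638 CPM in CTRL replicates 1 to 4. Without Rgs4 these sums were 1122, 1066, 1132 and 1074 CPM in PTX and 420.1, 418, 417 and 380.1 CPM in CTRL. Both sums were higher in all PTX cultures than in any CTRL culture.

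The genes whose values over the 8 libraries lay closest to those of each RGS gene were found by the root mean square difference of log2 CPM, centred on each gene's mean, among 13316 genes with a mean of at least 1 CPM. They are given as a description, with no test. The nearest to Rgs4 was Pde1c, a phosphodiesterase gene, at 0.105. For Rgs2 they were Cdkn1a, encoding the cell cycle inhibitor p21, at 0.116 and the integrin gene Itga2 at 0.141, and for Rgs16 they were Klhl4 at 0.141 and the activin receptor gene Acvr1c at 0.187. For Rgs7 they were Tmem88b at 0.081 and Pvr at 0.134. Rgs12 lay nearest to Odc1, the first enzyme of polyamine synthesis, at 0.102 and to the growth factor gene Hbegf at 0.106. For Rgs8 they were the kinase gene Camkk1 at 0.111 and Zswim4 at 0.127. For Rgs10 they were the G protein subunit gene Gnb4 at 0.11 and Stbd1 at 0.126. Among the genes with lower PTX means, Rgs17 had the closest company, with Kifc2 at 0.051 and Kifap3 at 0.055. Rgs6 lay nearest to Polq at 0.121 and Fam120c at 0.124, and Rgs14 to Cyp4f15 at 0.148 and Map6d1 at 0.162.

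Several RGS genes are clustered on chromosome 1, and their tested neighbours did not all move with them. Beside Rgs4 lay Rgs5, 45.7 kb away, which did not pass the test (log2 fold change -0.08, SE 0.19, edgeR adjusted p = 0.797), and Ccdc190, 181 kb away, which fell (log2 fold change -1.54, edgeR adjusted p = 0.00533). Beside Rgs2 lay Rgs13, 133.2 kb away, which stayed above the threshold (edgeR adjusted p = 0.389), and Uchl5, which was slightly higher (log2 fold change 0.28, edgeR adjusted p = 0.0286). Between them these neighbours showed no shared direction. Beside Rgs8, on the side away from Rgs16, Npl stayed above the threshold (edgeR adjusted p = 0.576). Beside Rgs7, Fh1, 108.5 kb away, rose with a log2 fold change of 0.40 (edgeR adjusted p = 0.0391).

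Outside chromosome 1, both neighbours of Rgs12 rose, Msantd1 with a log2 fold change of 0.98 and Dok7 with 0.97 (edgeR adjusted p = 0.0111 and 0.000908). Beside Rgs10, Tgfb1i1 rose (log2 fold change 0.66, edgeR adjusted p = 0.00626) and Tial1 stayed above the threshold (edgeR adjusted p = 0.465). Beside Rgs6, Sipa1l1 fell (log2 fold change -0.71, edgeR adjusted p = 0.0001) and Dpf3 stayed above the threshold (edgeR adjusted p = 0.941). Beside Rgs14, Lman2 was slightly higher (log2 fold change 0.25, edgeR adjusted p = 0.0345) and Grk6, a receptor kinase gene, stayed above the threshold (edgeR adjusted p = 0.665). Rgs17, which fell, lay 0.6 kb from Mtrf1l, a mitochondrial release factor gene that rose (log2 fold change 0.77, SE 0.10, edgeR adjusted p = 0.000222). On its other side the nearest tested gene was Ipcef1, 963.4 kb away, which fell (log2 fold change -2.57, edgeR adjusted p = 1.44e-06).

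Of the 10 genes 1, Rgs17, had a peak within 2000 bp of a gene end, against 26.0% of the 14737 tested genes with a position. With 10 genes and no test, nothing is read from this difference. That peak (mm10, chromosome 10, 5823182 to 5823960, 779 bp) had the authors' score of 16.3, and 12.3% of the 4677 peaks scored higher. It lay 1703 bp beyond the low end of Rgs17, which is the 3′ end of this minus-strand gene, and 98452 bp from its other end. The same peak covered the annotated start of Mtrf1l at 5823943. No peak lay inside any of the 10 genes. For the other 9 genes the nearest peak was 40.7 kb (Rgs10) to 1321 kb (Rgs7) away. Within a window of 1000 bp the count was 0 of 10, and within 5000 bp it was 1. Of all 21 genes named Rgs with a number and a position, 2 had a peak, and the other was Rgs11. The labels name the same peak list for all 6 ChIP-seq samples and do not say how the samples entered it. No comparison of L3mbtl1-/- and wild-type hippocampus was made from it, and the tissue was not the cultured cells.

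The other steps of the G protein cycle were counted in lists of 114 genes, the 11 other RGS genes included, all chosen with earlier results known. Over these lists 31 genes rose and 29 fell of 100 tested, which is 60% against the background of 39.2%. Of 12 tested alpha subunits, 3 rose and 3 fell. That list is not limited to the Gi/o, Gq and Gz subunits on which RGS proteins act. Gnaq (1.61-fold), Gnao1 (1.42-fold) and Gnal (1.59-fold) fell, and Gna13 (1.39-fold), Gnai3 (1.21-fold) and Gna14 (2.69-fold) rose. Gnaq averaged 127 ± 12.5 CPM in PTX and 206 ± 31 CPM in CTRL (SD, n = 4 each, edgeR adjusted p = 0.00114). Gnao1, the main Go subunit of neurons, averaged 164 ± 19.1 CPM in PTX and 233 ± 18.3 CPM in CTRL (SD, n = 4 each, edgeR adjusted p = 0.00287). Gna14 missed the threshold when PTX replicate 3 (edgeR adjusted p = 0.0609) or CTRL replicate 2 (0.0519) was left out.

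Of 11 tested beta and gamma subunits, 2 rose and 2 fell, which is 36.4% called, against 39.2% of all tested genes. Gnb4 rose 2.26-fold and Gng4 2.15-fold, while Gng13 fell 2.91-fold and Gnb1 1.25-fold (edgeR adjusted p = 0.000276, 0.000275, 0.000498 and 0.0138). Gnb1 missed the threshold when PTX replicate 3 or 4 or CTRL replicate 1 was left out (edgeR adjusted p = 0.109, 0.0603 and 0.0871). With the replicate block 4 rose, Gng2 and Gng5 among them, and Gng3 was called lower (log2 fold change -0.26, edgeR adjusted p = 0.0422). That fit also called more of all tested genes. Of 4 tested genes for GoLoco and Ric8 proteins, which bind alpha subunits apart from receptors, 2 rose and 0 fell. Gpsm1 rose 2.01-fold (136 ± 16.4 CPM in PTX and 67.3 ± 6.36 CPM in CTRL, SD, n = 4 each, edgeR adjusted p = 6e-05). Ric8b rose 1.22-fold (edgeR adjusted p = 0.0211), a call lost without CTRL replicate 3 (0.0655) or 4 (0.0596) and with no filter on low counts. Ric8a stayed above the threshold (edgeR adjusted p = 0.137) and was called higher with the replicate block (0.023).

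Effector genes included rises, falls and genes that did not pass the test. Of 3 tested GIRK channel subunits, the potassium channels opened by Gi/o, Kcnj3 fell 2.33-fold and Kcnj9 2.71-fold, and Kcnj6 rose 1.46-fold (edgeR adjusted p = 0.000149, 4.09e-05 and 0.0146). Of 3 tested phospholipase C beta genes, the effectors of Gq, Plcb4 fell 1.4-fold (edgeR adjusted p = 0.000578) and 0 rose, while Plcb3 (edgeR adjusted p = 0.0561, and 0.000592 and higher with the replicate block) and Plcb1 (edgeR adjusted p = 0.513) did not pass the test. Of 8 tested adenylyl cyclases, 3 fell and 1 rose, which is 50% called, against 39.2% of all tested genes. With the replicate block 6 fell, in a fit that also called more of all tested genes. Adcy8, a calcium-stimulated cyclase, rose 3.62-fold and averaged 99.7 ± 10.9 CPM in PTX and 27.5 ± 4.38 CPM in CTRL (SD, n = 4 each, edgeR adjusted p = 5.08e-06). Adcy1, also stimulated by calcium, fell 2.31-fold and averaged 323 ± 57 CPM in PTX and 746 ± 67.6 CPM in CTRL (SD, n = 4 each, edgeR adjusted p = 6.01e-05). Adcy3 fell 1.51-fold and Adcy6 1.3-fold (edgeR adjusted p = 0.00209 and 0.00744), and Adcy6 missed the threshold when PTX replicate 3 was left out (edgeR adjusted p = 0.0512).

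Of the tested receptor genes, 70.4% of the Gi/o-coupled and 84.2% of the Gq-coupled ones were called, in both directions. The share over all tested genes was 39.2%, and no test was made against it. Of 27 tested Gi/o-coupled receptors, 9 rose and 10 fell, with a median log2 fold change of 0.11. Npy1r, a neuropeptide Y receptor gene, rose 6.37-fold and Sstr2, a somatostatin receptor gene, 4.49-fold, while the delta opioid receptor gene Oprd1 fell 9.69-fold (edgeR adjusted p = 4.05e-06, 6.28e-06 and 6.42e-06). Oprd1 had 7 to 11 counts in each PTX library and passed the filter on low counts through its CTRL level. Grm2, also among the falls, had 2 to 15 counts in each PTX library and passed through its CTRL level too. Of 19 tested Gq-coupled receptors, 10 rose and 6 fell, with a median of 0.53. The adrenergic receptor gene Adra1a rose 3.94-fold, while the neurotensin receptor gene Ntsr1 fell 10.5-fold (edgeR adjusted p = 3.42e-06 and 2.65e-06). Among the Gq-coupled rises, Htr2b had 3 to 8 and Bdkrb2 4 to 7 counts in each CTRL library. Both passed the filter only through their PTX level. The shares called thus include genes let in by the group where they are high, and nothing is read from them. These lists were not adjusted for expression level, and none was tested as a list.

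**Figure D4:**
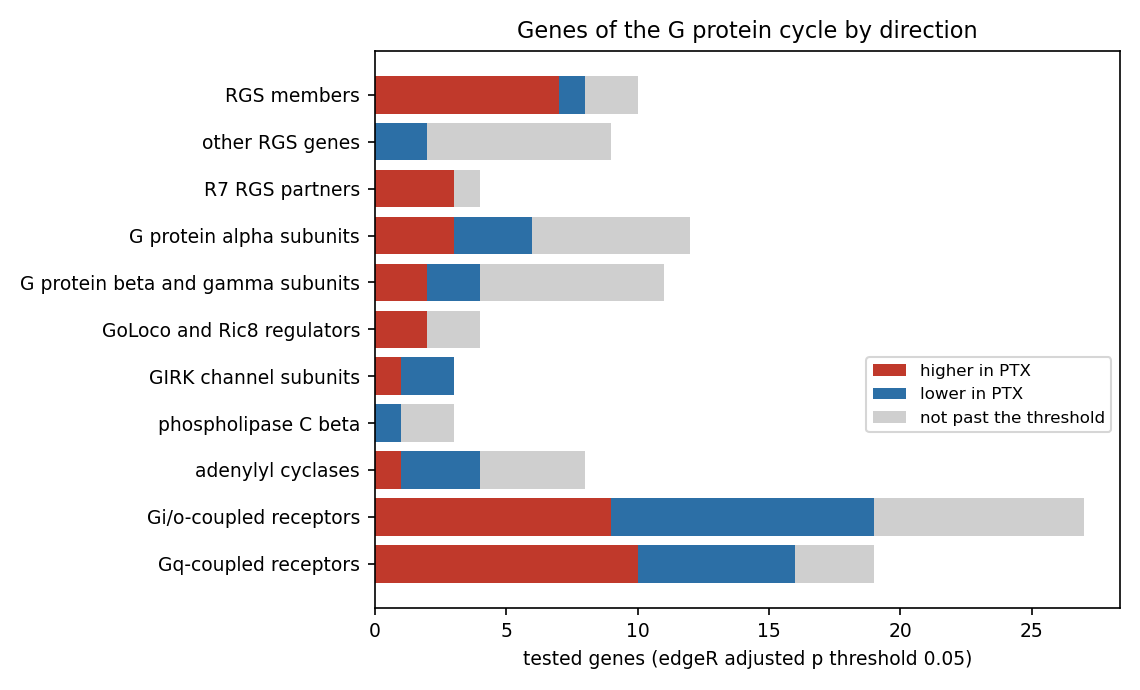
Number of tested genes (x axis) called higher (red), lower (blue) or not past the threshold (grey) in PTX against CTRL for the 10 RGS genes and each list of the G protein cycle (y axis). The 10 RGS genes have 7 rises and 1 fall, the 9 other tested RGS genes 0 rises and 2 falls, and both receptor lists hold rises and falls.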

How the data were processed

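The authors deposited 1 table of unnormalized counts per Ensembl gene for each of the 8 RNA-seq libraries. Per the labels' protocols, 15 ng of RNA depleted of ribosomal RNA entered each ScriptSeq v2 library. The submitters' processing notes name CASAVA 1.8, TopHat2 2.0.9, HTSeq 0.6.1, Bowtie2 2.2.4 and mm10, without roles. For the counting, no source used here gives a strand setting or an annotation release. The 5 summary lines of each table (38.5% to 45.1% of its total) were left out, and 42462 of 43629 identifiers matched a symbol. The peak score is the authors' own, as deposited. No source used here names the peak caller or what the score measures.

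PTX and CTRL were compared across all genes with edgeR 4.0.16 under R 4.3.3 (quasi-likelihood F test with TMM, filterByExpr and no covariate), which was checked on simulated data. Standard errors were taken as the absolute log2 fold change over the root of F. Gene positions, starts and promoter sequences came from RefSeq GRCm38.p6. A peak was counted for a gene when it reached within 2000 bp of either end. Protein sequences were not used here. The genes, the lists and the rule for named genes were chosen with earlier results of these data known. The rule takes all 10 genes, the 3 of each list with the smallest p, members that a small count would leave unnamed, tested neighbours, and the 2 genes nearest in pattern. Some genes that the rule takes are not reported here. The labels name no pairing, so the main fit used no block. Same-numbered cultures deviated together (correlations 0.77, 0.57, 0.15 and 0.61 over 15959 genes). For PTX replicate 3 the highest correlation with a CTRL culture of another number was 0.1, close to its 0.15. The numbers served as pairs only where pairs or the replicate block are named.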

Additional observations from a re-analysis of the deposited data

How the results depend on the processing

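The 7 rises and the fall of Rgs17 kept their call under all 14 alternatives: DESeq2 1.42.0, RLE size factors, no filter on low counts, the replicate block, leaving out each library, leaving out both libraries numbered 1, and the last with the replicate block. Over these the log2 fold change of Rgs4 ran from 3.15 to 3.45, of Rgs16 from 2.67 to 3.04 and of Rgs17 from -0.69 to -0.53. The number of the 10 genes called lower was 1, and it was 3 with the replicate block, with or without the libraries numbered 1, when Rgs6 and Rgs14 passed. When single libraries were left out it ran from 1 to 2, since Rgs14 passed without PTX replicate 1 or CTRL replicate 4. The count of genes with a peak fell to 0 within 1000 bp. Over all 15959 tested genes 8820 were called with the replicate block, against 6248 without it, so counts with the block have a higher background. Rgs14 had 218 counts over the PTX libraries and 403 over the CTRL libraries.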
